A study of Mus musculus with 3 samples.

Results

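The nuclei described here are smooth muscle nuclei of the newborn mouse aortic root in which UMIs of Rgs5, Sost and Igfbp2 outnumbered those of the genes that mark the other kinds of smooth muscle. UMIs are unique molecular identifiers, which count captured RNA molecules once each. A nucleus entered with at least 1000 UMIs, at most 5% of them from mitochondrial genes, at least 3 of the genes Myh11, Itga8, Lmod1, Synpo2 and Mylk detected and their sum at or above 0.2% of its UMIs, with cardiomyocyte genes (Ryr2, Ttn, Myh6, Tnnt2) under 0.5% and at most 1 UMI of the endothelial genes Pecam1, Cdh5 and Ptprb. Of these smooth muscle nuclei, members had at least 2 UMIs over Rgs5, Sost and Igfbp2, more than over Clca3a2, Pi15, Syt1, Col24a1 and Cdh18, and more than over Ptprz1, Mylk4 and Col19a1. The rule found 145 members among 2612 smooth muscle nuclei, 14073 nuclei that passed the limits on UMIs and mitochondrial share, and 21140 deposited nuclei. The other 2467 smooth muscle nuclei held 1169 with a Clca3a2 Pi15 majority, 998 with a Ptprz1 Mylk4 majority and 300 with neither.

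The RNA came from the gene expression side of a 10x Multiome assay on nuclei of flash-frozen aortic valve structures, a mixture of cell types per the labels. All pups were at postnatal day 1 and carried the strain label B6.Cg-Scx<tm1.1(EGFP)Skom, which names an EGFP allele of the tendon gene Scx, and whether pups carried 1 or both copies was not given. The study has a single group of 3 pools, each of 22 to 24 aortic roots, and no other genotype, age or treatment. Comparisons are therefore between kinds of nuclei within pools, and p-values measure the spread between these 3 pools. Pools 1, 2 and 3 gave 88, 37 and 20 members with 415478, 196490 and 61134 UMIs in sum, so pool 1 carries most of the members' depth and pool 3 the least. Between pairs of pools, 99, 59 and 44 cell barcodes were shared.

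Smooth muscle of the aortic media contracts and also lays down elastic lamellae and collagen. Rgs5 is a regulator of G-protein signalling that shortens the signal of Gi- and Gq-coupled receptors and is known from arterial smooth muscle and pericytes. Sost encodes sclerostin, a secreted inhibitor of Wnt signalling best known from osteocytes and also made by vascular smooth muscle, and Igfbp2 encodes a secreted protein that binds insulin-like growth factors. Acan encodes aggrecan, the large proteoglycan of cartilage, which is also present in the arterial wall. In smooth muscle near the heart, cells from the neural crest and the second heart field meet at the aortic root.

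The stretches before the starts of the genes that define these nuclei are shown as a description of these genes. Each run is the 250 bases before the annotated gene start, 5′ to 3′ along the gene, from RefSeq on GRCm38.p6, a different build from the GRCm39 that the submitters' processing notes name. Capitals mark the motifs CCAAT and GGGCGG on either strand, which read ATTGG and CCGCCC on the other strand and share no letters where they occur here. The Rgs5 run lies at chr1:169655251-169655500 on the plus strand, the Sost run at chr11:101967016-101967265 on the minus strand and the first of 2 Igfbp2 runs at chr1:72824230-72824479 on the plus strand.
Rgs5: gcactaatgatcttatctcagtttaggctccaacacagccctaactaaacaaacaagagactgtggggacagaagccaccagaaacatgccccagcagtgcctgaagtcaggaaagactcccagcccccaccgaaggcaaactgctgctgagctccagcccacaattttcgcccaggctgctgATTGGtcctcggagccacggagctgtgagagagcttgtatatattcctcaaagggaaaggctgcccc
Sost: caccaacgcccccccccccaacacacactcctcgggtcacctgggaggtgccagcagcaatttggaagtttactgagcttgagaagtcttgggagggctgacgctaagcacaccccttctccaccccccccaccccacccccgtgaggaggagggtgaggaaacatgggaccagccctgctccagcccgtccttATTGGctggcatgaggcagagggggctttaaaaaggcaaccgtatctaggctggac
Igfbp2: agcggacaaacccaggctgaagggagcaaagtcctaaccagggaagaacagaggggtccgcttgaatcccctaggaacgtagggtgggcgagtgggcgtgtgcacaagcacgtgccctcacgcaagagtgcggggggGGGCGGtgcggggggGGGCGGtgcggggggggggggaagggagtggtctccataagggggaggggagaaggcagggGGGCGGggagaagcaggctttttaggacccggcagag
Rgs5 and Sost each held 1 CCAAT motif and no GGGCGG, while the first Igfbp2 run held 3 GGGCGG motifs and no CCAAT, and the second held neither. Of 32851 runs of 250 bases in the RefSeq table, 33.8% held CCAAT and 32.7% held GGGCGG, so neither is rare.

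The genes that chose the members are given as a description, with no test. Levels are in CPM, the UMIs of a gene scaled to a common total of UMIs for each kind of nuclei in a pool. Rgs5 stood at 1028, 1562 and 785 CPM in the members of pools 1, 2 and 3, against 174, 269 and 135 CPM in the other smooth muscle nuclei. Sost stood at 529.5, 799 and 736 CPM against 143, 194 and 108 CPM, and Igfbp2 at 303, 433 and 278 CPM against 54.7, 65.1 and 23.1 CPM. In cardiomyocyte nuclei of the same pools, which show the level of free RNA, the mean was 26.4 CPM for Rgs5, 16.1 CPM for Sost and 5.84 CPM for Igfbp2, so the other smooth muscle nuclei also stood above that level. Acan was outside the rule but was named as a marker of these nuclei with earlier results of these data known. It was at 517, 728 and 409 CPM in members and 251, 310 and 177 CPM in the other smooth muscle nuclei. The ranges did not overlap, as for 23.3% of all genes tested between these kinds of nuclei. The Ptprz1 Mylk4 nuclei held more Acan (323 CPM on average) and Sost (194 CPM) than the Clca3a2 Pi15 nuclei (186 and 127 CPM), and the latter held more Rgs5 (220 against 161 CPM).

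**Figure D1:**
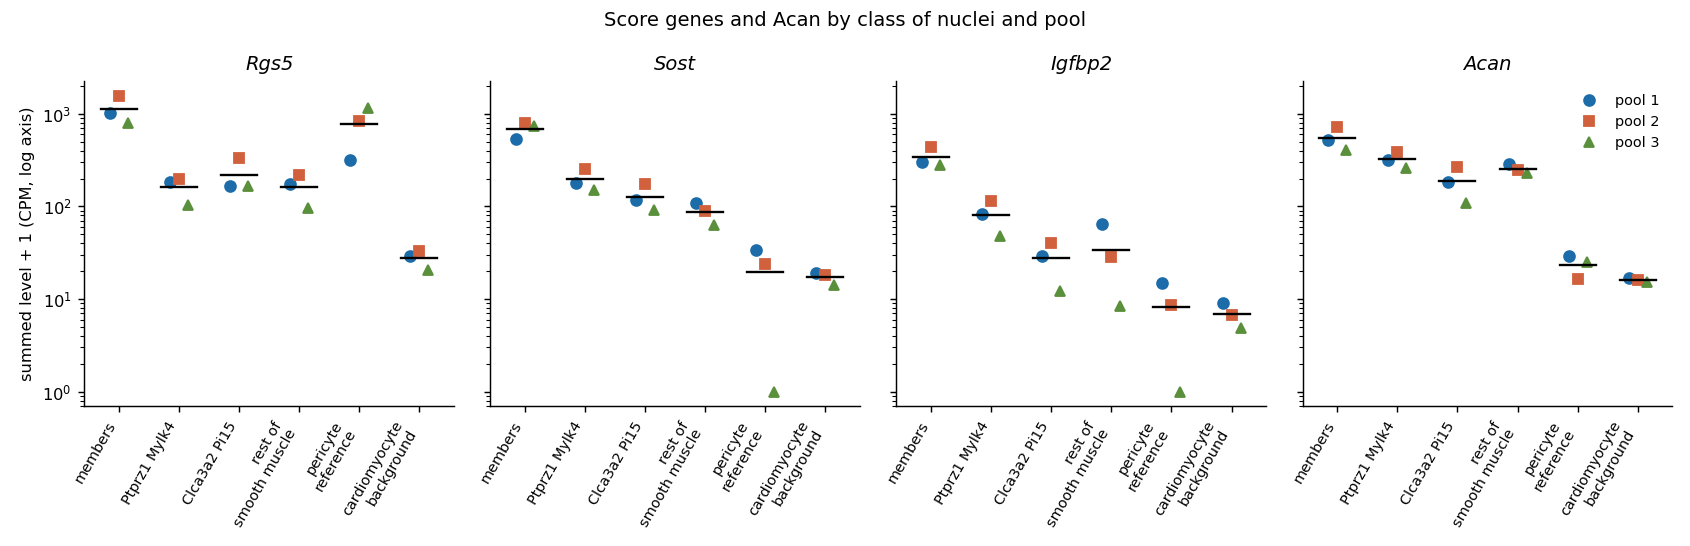
Levels of Rgs5, Sost, Igfbp2 and Acan in each pool (points) with the mean (line), by kind of nuclei, as CPM + 1 on a log axis. Members have the highest mean for the 3 genes that chose them. Acan, a marker named with earlier results of these data known, averages 551 CPM in members and 246 CPM in the other smooth muscle nuclei.

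Rgs5 and Sost were found together more than either was found alone. Of 145 members, 37 had UMIs of Rgs5 and Sost without Igfbp2, 36 had all of the 3 genes, 26 had Rgs5 alone, 20 Sost alone, 13 Sost and Igfbp2, 11 Rgs5 and Igfbp2 and 2 Igfbp2 alone. The rule favours nuclei with more than 1 of these genes, so the counts are a description. The sum over the 3 genes had a median of 5.5, 8 and 4 UMIs in pools 1, 2 and 3 and reached 42, 82 and 19 UMIs. Members shared these genes with nuclei outside the rule, and outnumbered nuclei reached sums of 26, 39 and 21 UMIs, in pool 3 above the highest member. Members held 24.9%, 44.4% and 14.9% of the Rgs5 UMIs and 17.2%, 36.2% and 17.0% of the Sost UMIs of all smooth muscle nuclei in pools 1, 2 and 3. At the threshold, 28 members had a sum of exactly 2 and 12 a sum of 3, while 24 nuclei with a sum of 1 and no UMI of the other kinds' genes stayed out. A further 39 nuclei with a sum of at least 2 tied with another kind and 835 were outnumbered by one. Acan was at 231, 461 and 417 CPM in the members of pools 1, 2 and 3 with a sum of 2 and at 276, 92.5 and 441 CPM in the excluded nuclei with a sum of 1, and these ranges overlapped. It was at 582, 30.5 and 58.3 CPM in the tied nuclei, 279, 378 and 202 CPM in the outnumbered nuclei and 726, 865 and 797 CPM in the members with a sum of at least 10. In pool 2, 1 member held 43 of the members' 143 Acan UMIs.

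Nuclei were then thinned at random to 1000 UMIs, so that depth could not set how often a gene is seen. Rgs5 was detected in 54.3% ± 13.9 of members (mean and SD over pools, n = 3), in 13.7% ± 2.58 of the other smooth muscle nuclei and in 2.12% ± 0.896 of cardiomyocyte nuclei; unthinned shares were 73.8%, 32.5% and 11.1%. Sost was detected in 46.2% ± 12.9 of members after thinning and Acan in 37.1% ± 8.13, against 12.9% ± 3.71 and 20.4% ± 0.953 of the other smooth muscle nuclei and 1.73% and 1.51% of cardiomyocyte nuclei. Members made up 5.41% of smooth muscle nuclei in pool 1 (Wilson 95% interval 4.41 to 6.61), 9.95% in pool 2 (7.30 to 13.4) and 3.27% in pool 3 (2.13 to 4.99). Pool 2 was above pools 1 and 3 beyond counting error here, and the mean was 6.21% ± 3.41. Among nuclei with at most 2% mitochondrial UMIs the shares were 4.08% (3.18 to 5.23), 5.69% (3.58 to 8.92) and 2.78% (1.72 to 4.47), and the intervals overlapped. Thinned to 1000 UMIs before the rule was applied, the mean was 4.10%.

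Smooth muscle markers that the rule did not use were set beside cardiomyocyte nuclei. Acta2, Tagln and Cnn1 averaged 2789, 1132 and 153 CPM in members, 915, 412 and 67.8 CPM in the other smooth muscle nuclei and 190, 54.1 and 10.0 CPM in cardiomyocyte nuclei. Myocd, which the heart also expresses, went the other way, with 538 CPM in members and 2741 CPM in cardiomyocyte nuclei. The summed level of Acta2, Tagln, Cnn1, Smtn, Myocd and Des was 3945, 6616 and 3991 CPM in members and 2326, 2644 and 1888 CPM in the other smooth muscle nuclei. It was 3344, 3056 and 3232 CPM in cardiomyocyte nuclei, under each pool of members but above each pool of the other smooth muscle nuclei. A high sum is therefore not particular to smooth muscle nuclei. The 8 cardiomyocyte markers summed to 599, 758 and 556 CPM in members and 6745, 6673 and 6302 CPM in cardiomyocyte nuclei. EGFP, a feature of the tables, gave 2.41, 5.09 and 0 CPM in members and a mean of 3.07 CPM in cardiomyocyte nuclei, so it did not stand above the free RNA.

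RNA content differed between members and the rest, and it moves with most of the results that follow. The share of UMIs from mitochondrial genes and ribosomal protein genes had a median per nucleus of 2.73%, 5.52% and 3.03% in members of pools 1, 2 and 3, against 1.43%, 2.07% and 1.13% in the other smooth muscle nuclei, with no overlap. Median depth was closer, at 4063, 4430 and 2736 UMIs in members and 4031.5, 3734 and 2624.5 UMIs in the others. Each member was therefore also compared with 1 other smooth muscle nucleus of its pool with the nearest mitochondrial and ribosomal share and depth, a set whose medians averaged 3.63% beside 3.76% in members. The comparisons are called full and matched below, and many genes of low level had too few counts to be tested after matching. Over the 3 pools, ranges without overlap were found for 23.3% of all genes in the full comparison, in either direction. That share stands beside each gene of this comparison given below with no overlap.

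In the full comparison, 699 of 9695 genes differed at an adjusted p under 0.05 (edgeR, 7.21% of genes tested), of which 578 were higher in members (5.96%) and 121 lower (1.25%). In the matched comparison, 19 of 4091 genes differed (0.464%), 10 higher (0.244%) and 9 lower (0.22%), and 18 of them were among the 699. Matching on depth alone left 228 of 4070 genes (5.6%), and a mitochondrial limit of 2% left 164 of 8792 (1.87%). Mitochondrial genes were called in 12 of 13 cases in the full comparison and in 0 of 11 in the matched comparison. The median over these genes fell from 1.13 to 0.10 on the log2 scale. The matched nuclei were chosen by the share of these genes, so this fall follows from the matching. The matched comparison has 145 nuclei on each side and is a single draw, so it has less depth as well as closer RNA content, and the depth-matched comparison has the same number of nuclei. Gene length, taken from RefSeq on GRCm38.p6 for 98.9% of genes tested, moved with the calls too. Its median was 7.735 kb for genes higher in members, 239 kb for those lower and 31.3 kb for all genes tested. After matching on RNA content and depth it was 35.3 kb for the 10 higher, 405 kb for the 9 lower and 57.1 kb for all, and its part in the calls was not tested. Without pool 1 the full comparison called 332 genes (3.5%), without pool 2 259 (2.44%), without the pool as a block 173 (1.78%) and with DESeq2 304 (3.74%).

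**Figure D2:**
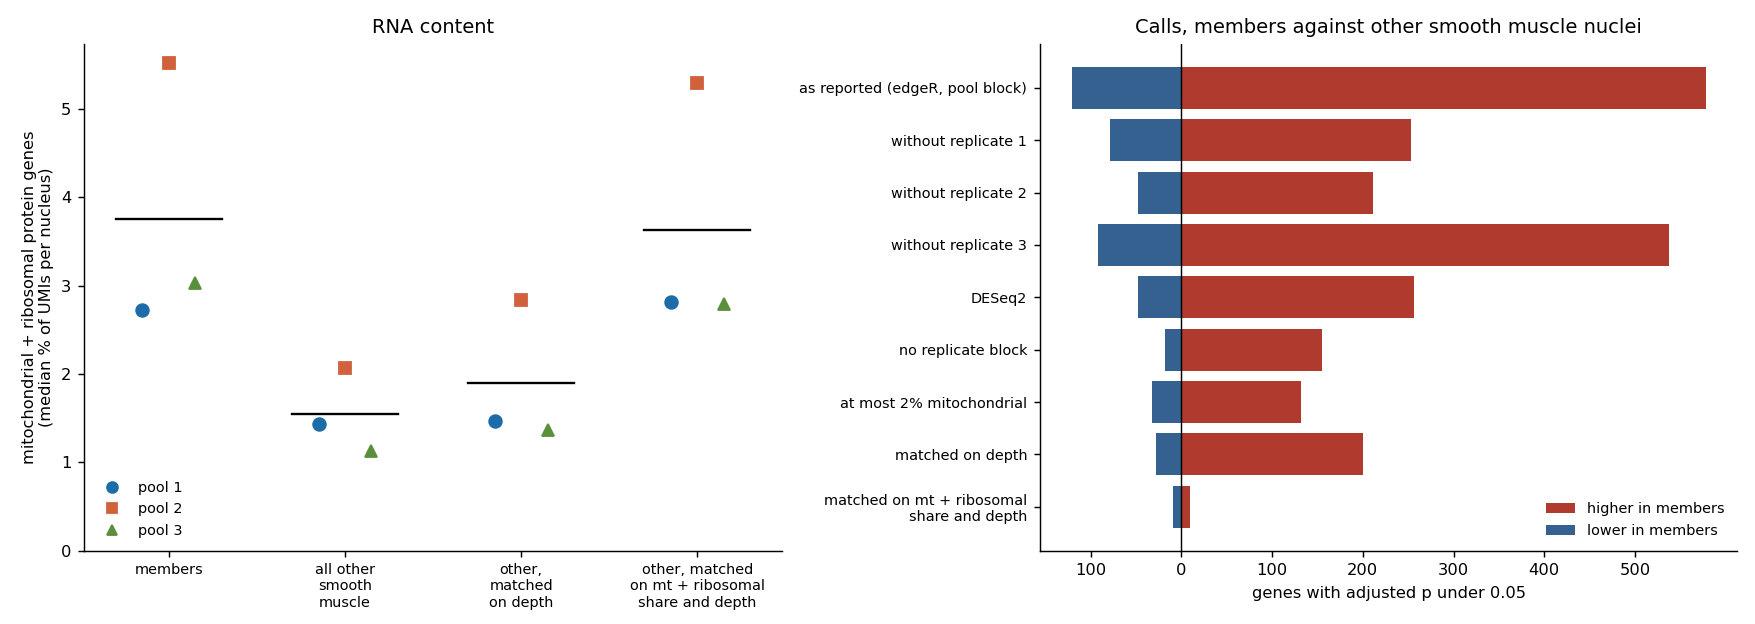
Left, median percent of UMIs from mitochondrial and ribosomal protein genes in each pool (points) with the mean (line). Right, genes with an edgeR or DESeq2 adjusted p under 0.05, higher (red) and lower (blue) in members, by setting: 699 as reported, 228 after matching on depth and 19 after matching on RNA content and depth.

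Some contractile genes were higher in members, and Acta2, Tpm2 and Tagln were also higher in the matched comparison. Acta2, smooth muscle actin, was at 2014, 4194 and 2159 CPM in members and 862, 1176 and 707 CPM in the other smooth muscle nuclei, with no overlap. Its log2 fold change was 1.58 (SE 0.12, adjusted p = 3.13e-15, edgeR) in the full comparison and 1.03 (SE 0.15, adjusted p = 0.00102) against matched nuclei. Tpm2, a tropomyosin of thin filaments, was at 428, 936 and 556 CPM against 160, 276 and 128 CPM, with a log2 change of 1.74 (SE 0.15) in the full and 0.99 (SE 0.19, adjusted p = 0.0131, edgeR) in the matched comparison. Tagln, the actin-binding transgelin, was at 876, 1522 and 998 CPM against 407, 536 and 294 CPM, with changes of 1.45 (SE 0.14) and 0.79 (SE 0.18, adjusted p = 0.0444, edgeR). Of 36 contractile genes tested, 11 rose and 0 fell, beside 5.96% of all genes higher. Their median change was 0.42 beside -0.02 over all genes. After matching, 3 of 33 rose, Acta2, Tpm2 and Tagln, beside 0.244% of all genes, and the median was 0.22 beside 0.01. Tpm1, a further tropomyosin, rose by 0.59 in the full comparison and had 0.23 (adjusted p = 0.888, edgeR) in the matched. Cnn1, calponin, rose by 1.03 (adjusted p = 0.002, edgeR) in the full comparison but had 0.49 (adjusted p = 0.882) in the matched. Myocd, the coactivator that drives smooth muscle genes, was at 691, 417 and 507 CPM in members and 758, 606 and 654 CPM in the others and did not pass (log2 -0.27, adjusted p = 0.325).

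Elastic fibre genes gave the highest share of calls of the 13 lists in the full comparison. Of 20 tested, 14 rose and 0 fell, with a median of 0.85, beside 5.96% of all genes higher and a median of -0.02. After matching 2 of 17 rose, Lox and Eln, with a median of 0.31, beside 0.244% of all genes and a median of 0.01. Eln, the elastin gene, took 24059, 28816 and 17682 CPM in members and 14134, 16538 and 11096 CPM in the other smooth muscle nuclei, with no overlap. Its log2 change was 0.77 (SE 0.10, adjusted p = 2.11e-08, edgeR) and 0.46 (SE 0.10, adjusted p = 0.0444) after matching. Lox, the enzyme that crosslinks elastin and collagen, was at 397, 748 and 393 CPM against 160, 196 and 140 CPM. Lox rose by 1.63 (SE 0.16) and by 1.10 (SE 0.22, adjusted p = 0.0178, edgeR) after matching. Mgp, matrix Gla protein and an inhibitor of calcification, was at 1461, 3074 and 1161 CPM against 679, 1251 and 503 CPM, where the members of pool 3 lay below the other nuclei of pool 2. Mgp rose by 1.24 in the full comparison and had 0.25 (adjusted p = 0.888, edgeR) in the matched. Against matched Ptprz1 Mylk4 nuclei alone it had 1.16 (adjusted p = 1.21e-06, edgeR), and against matched Clca3a2 Pi15 nuclei -0.19 (adjusted p = 0.755). Of 19 proteoglycan genes 6 rose and 1 (Gpc6) fell, and 0 of 16 passed after matching. Bgn, a small proteoglycan, rose by 1.27 (adjusted p = 8.64e-10, edgeR) and had 0.54 (adjusted p = 0.2) after matching. Against matched Clca3a2 Pi15 and Ptprz1 Mylk4 nuclei by themselves Bgn rose by 0.62 and 0.70 (adjusted p = 0.0471 and 0.0112, edgeR).

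Among collagens, 11 of 22 rose and 0 fell (median 0.68), beside 5.96% of all genes, and after matching 1 of 20 rose, beside 0.244% of all genes. That gene was Col4a1, a chain of basement membrane collagen. Col4a1 was at 787, 1094 and 654 CPM in members and 368, 396 and 357 CPM in the others, with no overlap, and its change was 1.23 (SE 0.14) and 0.96 (SE 0.17, adjusted p = 0.00742, edgeR) after matching. Sparc, a collagen-binding matrix protein outside the lists, was at 2029, 2977 and 1456 CPM against 637, 933 and 446 CPM and rose by 1.72 and by 0.76 (SE 0.15, adjusted p = 0.0178, edgeR) after matching. Col1a1, of fibrillar collagen, was at 1410, 2163 and 687 CPM against 574, 846 and 432 CPM, so the members of pool 3 lay below the other nuclei of pool 2, with a log2 change of 1.23 in the full comparison and 0.29 (adjusted p = 0.783, edgeR) in the matched.

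Since Acan marks these nuclei, cartilage genes were counted too. Of 30 on the list, 6 passed the filter on low counts: Pth1r, the receptor of parathyroid hormone-related protein, and the transcription factor genes Sox5 and Sox6 rose, and Wwp2, a ubiquitin ligase gene, fell, beside 5.96% of all genes higher and 1.25% lower, while 0 of 4 passed after matching, beside 0.464% of all genes. Sox5 was at 532, 524 and 867 CPM in members and 378, 320.5 and 528 CPM in the others (log2 0.66, adjusted p = 0.000824, edgeR; 0.75, adjusted p = 0.0643 after matching). After thinning, Sox5 was seen in 36.5% of members and 35.1% of the 300 nuclei of neither kind, and Sox6 in 18.0% and 21.3%, differences smaller than the SD between pools. Markers of chondrocytes were near 0: Col2a1, Matn1, Matn3, Snorc, Ucma and Cnmd had no UMI in members, which for 673102 UMIs allows up to 4.46 CPM each, and the 10 markers summed to 19.3, 10.2 and 49.1 CPM in the 3 pools.

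The pathways of the defining genes were counted beside the 5.96% of all genes that were higher and the 1.25% that were lower. In the list of insulin-like growth factor genes, 4 of 15 rose and 0 fell: Igf2, Igf1, Igfbp4 and Igfbp7. Igfbp4 turned to -0.49 after matching, and Igf1 to -1.004 with only the Sost-negative members described further on, neither past the threshold. Against Clca3a2 Pi15 nuclei alone Igf1 and Igfbp4 did not pass (log2 0.33 and 0.38, adjusted p = 0.422 and 0.34, edgeR), and after thinning Igf1 was seen in 11.3% of members, 12.98% of the nuclei of neither kind and 12.7% of cardiomyocyte nuclei. Igfbp7, a secreted binding protein of vessels, was at 1459, 1837 and 1243 CPM in members and 695, 832 and 731 CPM in the others, with no overlap. It rose by 1.05 (SE 0.13) and by 0.68 (SE 0.15, adjusted p = 0.0436, edgeR) after matching, the only one of 12 that did. Igf2 was at 207, 331 and 65.4 CPM against 83.8, 122 and 59.0 CPM, with 1.31 in the full and 0.24 (adjusted p = 0.936, edgeR) in the matched comparison. Of 31 Wnt pathway genes, 2 rose and 0 fell, and 0 of 18 passed after matching. They were Sfrp2, a secreted Wnt modulator (436, 570 and 245 CPM against 155, 227 and 105 CPM; log2 1.44, matched 0.54 with adjusted p = 0.369, edgeR), and Fzd2, a Wnt receptor (log2 0.98, adjusted p = 0.0318, edgeR).

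Of 20 genes for RGS proteins and Gq- or Gi-coupled vessel receptors, 4 rose and 0 fell: Chrm3, the M3 muscarinic receptor, Rgs4, Rgs17 and F2r, the thrombin receptor. After thinning, Chrm3 was seen in 3.70% of members and 3.76% of the nuclei of neither kind, and Rgs17 in 3.32% and 3.47%. With only the 106 members that had a Sost UMI, the direction of Chrm3 turned, with a log2 change of -1.56 (adjusted p = 0.206, edgeR). None of 13 passed after matching, where 284 of all 4091 genes had an unadjusted p under 0.05. Rgs4 was at 84.2, 112 and 65.4 CPM against 30.0, 49.0 and 32.0 CPM, with no overlap (log2 1.38, adjusted p = 0.000363, edgeR; matched 0.97, adjusted p = 0.593). In the lists of BMP and TGF-beta genes 2 of 31 rose, Id2 and Id3, which are inhibitory helix-loop-helix factors and common BMP targets, and 0 fell, a share near the 5.96% of all genes, and 0 of 24 passed after matching. In the lists of Notch genes (10 tested, 8 after matching) and calcification regulators (9 tested, 4 after matching), 0 passed in either comparison. Of 40 transcription factor genes 2 rose, Tbx2 and Nr2f2, and 2 fell, Dach1 and Foxp2, and 0 of 24 passed after matching. Dach1 was seen after thinning in 15.96% of members, 15.2% of Clca3a2 Pi15 nuclei, 15.7% of the nuclei of neither kind and 36.7% of Ptprz1 Mylk4 nuclei, and against Clca3a2 Pi15 nuclei alone it did not pass (log2 0.10, adjusted p = 0.795, edgeR). Nr2f2, the orphan nuclear receptor known from veins and mesenchyme, was at 84.2, 76.3 and 131 CPM against 35.0, 32.2 and 50.2 CPM (log2 1.33, adjusted p = 0.000599, edgeR; matched 1.44, adjusted p = 0.215).

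The genes with the highest fold changes were of low level. By a fixed rule of size, 15 genes higher in members were taken, with log2 changes from 1.92 to 3.66, and 4 of them had enough counts to be tested after matching. Reln and Olfr78 did not. The 15 included Reln, Gpr176, Olfr78, C1ra, Inpp4b, Il1rapl2, Sgip1, Trpc6, Sparcl1, Sorcs1, Mustn1, Cavin3, Znrd2 and Olfm1. Inpp4b, a phosphoinositide phosphatase gene, was at 101, 71.3 and 229 CPM in members against 18.9, 16.8 and 33.5 CPM in the other smooth muscle nuclei, on 42, 14 and 14 UMIs. These came from 9 of 88, 4 of 37 and 4 of 20 members, and 1 nucleus of pool 1 held 19 of the 42, so few members carried it. Inpp4b rose by 2.46 (SE 0.30) and by 4.37 (SE 0.62, adjusted p = 0.00102, edgeR) after matching. Reln, a secreted glycoprotein, was at 38.5, 40.7 and 65.4 CPM against 2.03, 5.60 and 6.40 CPM (log2 3.66, SE 0.52, adjusted p = 2.76e-07, edgeR). Olfr78, an odorant-receptor family gene, was at 81.8, 45.8 and 81.8 CPM against 14.5, 8.40 and 13.3 CPM, and Sparcl1, a matricellular protein gene, at 123, 102 and 81.8 CPM against 15.8, 28.0 and 33.9 CPM (matched log2 1.74, adjusted p = 0.0843, edgeR). For each of these 4 genes the lowest member pool lay above the highest pool of the others, as it did in either direction for 23.3% of all genes tested. Gpr176 and Sorcs1 rested on pool 3, at 131 and 196 CPM there beside 14.4 and 20.4 CPM and 9.63 and 25.4 CPM in pools 1 and 2.

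The genes with the largest falls in members included some of low level there, such as Kcnd2, and Kcnip4 at a higher level. The 15 taken by the same rule were Kcnd2, Cntn6, Hpse2, Alk, Cdh12, Snx15, Lsamp, Opcml, Megf10, Egln3, Gabrb2, Rbfox1, Gria1, Kcnip4 and Mageb18, of which 2 could be tested after matching, Gria1 and Kcnip4. Kcnip4, a potassium channel-interacting protein gene, was at 221, 224 and 131 CPM in members and 605, 567 and 556 CPM in the other smooth muscle nuclei, with no overlap. Its log2 change was -1.44 (SE 0.17, adjusted p = 3.25e-09, edgeR), and -1.01 (SE 0.23, adjusted p = 0.0444) after matching. Gria1, a subunit of AMPA glutamate receptors, was at 79.4, 35.6 and 131 CPM against 189, 214 and 248 CPM and fell by 1.46 and by 1.49 (SE 0.29, adjusted p = 0.0171, edgeR) after matching. Cdh13, T-cadherin, was at 392, 188 and 196 CPM against 747, 658 and 861 CPM and fell by 1.35 and by 1.14 (SE 0.23, adjusted p = 0.0178, edgeR). Kcnd2, a potassium channel gene, had 2 UMIs in all members (4.81, 0 and 0 CPM) against 41.4, 12.6 and 33.5 CPM, and its size of change is therefore not given. The other genes that were lower after matching were Nkain2, Abi3bp, Plxdc2, Samd5, Efna5 and Gpm6a. Gpm6a was not called in the full comparison (log2 -0.33) and had 0.25 after matching on depth, so it went against the other settings. After thinning, the nuclei of neither kind were close to members in some of these genes: Samd5 was seen in 34.5% of members and 37.2% ± 4.81 of those nuclei, Efna5 in 59.7% and 62.7% ± 6.83 and Plxdc2 in 36.8% and 42.1% ± 7.96. Abi3bp was seen in 11.9% of members and 11.9% of Ptprz1 Mylk4 nuclei.

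**Figure D3:**
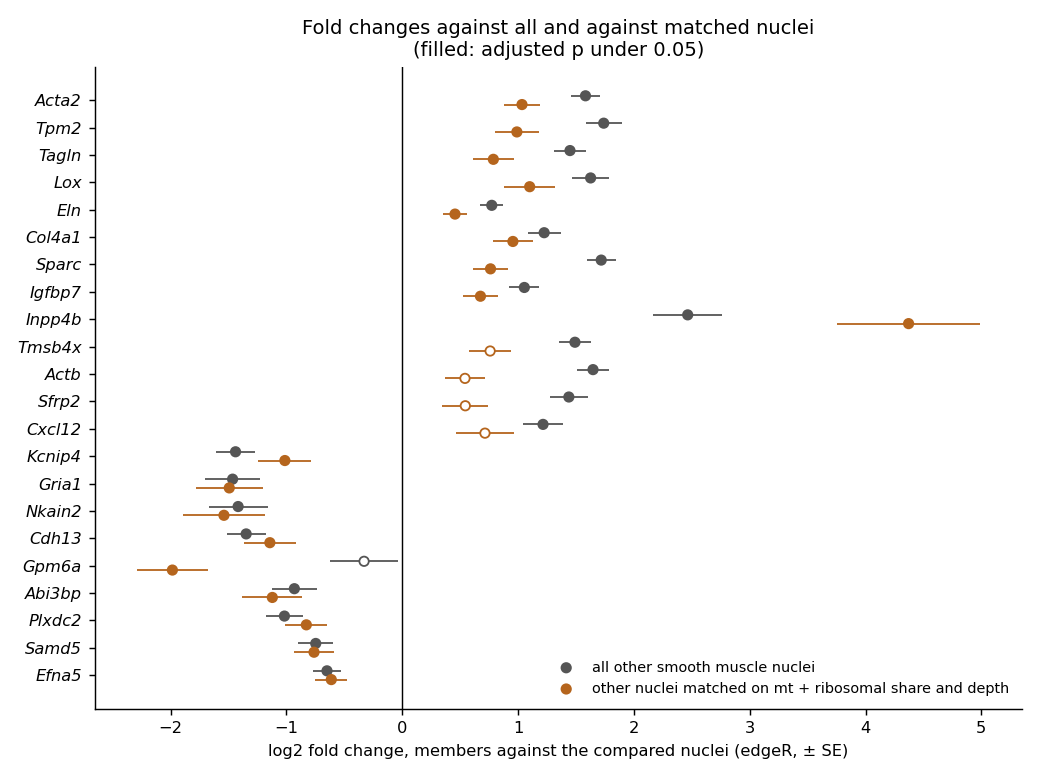
log2 fold change of named genes, members against other smooth muscle nuclei, with SE, in the full comparison and against nuclei matched on mitochondrial and ribosomal share and depth. Filled points have an edgeR adjusted p under 0.05. Acta2 has 1.58 and 1.03, Eln 0.77 and 0.46 and Kcnip4 -1.44 and -1.01, while Sfrp2 has 1.44 and 0.54.

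Set against each other kind of smooth muscle by itself, members differed in more genes. Against Clca3a2 Pi15 nuclei, 933 of 8796 genes passed (10.6%, edgeR), 661 higher and 272 lower, and 113 of 7219 (1.57%) after matching on RNA content and depth. Against Ptprz1 Mylk4 nuclei, 1011 of 8796 passed (11.5%), 703 higher and 308 lower, and 112 of 7184 (1.56%) after matching. Both contrasts use the same members, so they are not independent. Without pool 1 they called 367 (4.66%) and 429 genes (5.45%), without the pool as a block 270 (3.07%) and 508 (5.78%), and matched on depth alone 316 (4.39%) and 500 (7.02%). Reln, Olfr78, Trpc6, Inpp4b, Ccdc3, Sgip1 and Sparcl1 were among the 8 that rose most in both, and Cdh12, Cd46, Kctd16, Kcnip4, Rufy3, Snhg14, Slc24a4 and Prrg1 were the 8 that fell most in both. Mgp was nearer to the Clca3a2 Pi15 nuclei (926, 1757 and 642 CPM) than to the Ptprz1 Mylk4 nuclei (419, 613 and 285 CPM), with log2 changes of 0.80 and 2.04. Ltbp2, a latent TGF-beta binding protein gene of elastic fibres, went the other way, with 1.34 against Clca3a2 Pi15 (111, 104 and 68.7 CPM) and 0.39 (adjusted p = 0.144, edgeR) against Ptprz1 Mylk4 nuclei (190, 178 and 178 CPM), beside 260, 219 and 262 CPM in members. Gria1 was lower than in Clca3a2 Pi15 nuclei only (log2 -2.13 against -0.02), and the difference between these contrasts was not tested.

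Members were also split by whether a Sost UMI was seen, called Sost-positive and Sost-negative below. Of the 145, 106 had a Sost UMI (59, 30 and 17 in the 3 pools) and 39 had none (29, 7 and 3). Sost is 1 of the genes that chose the members, so Sost-negative members had to reach the sum on Rgs5 and Igfbp2 alone and the sets were chosen differently. No Sost UMI at this depth does not show that a nucleus lacks its RNA, so the tests below describe these sets of nuclei. The split was therefore repeated with the 24, 16 and 9 Sost-positive members that met the rule on Rgs5 and Igfbp2 alone, an alternative added after the data were seen. Median depth was 4429, 4644.5 and 2585 UMIs in Sost-positive members and 3655, 3886 and 3612 UMIs in Sost-negative members. Between them, 65 of 1852 genes differed (3.51%, edgeR), 33 higher (1.78%) and 32 lower (1.73%) in Sost-positive members, and mitochondrial genes were called in 0 of 10 cases. With Sost-positive members that met the rule without Sost, 52 of 1382 genes differed (3.76%, edgeR), of which 41 were among the 65. Of the genes named below, Nr2f2 and Lgr6 were not among them (log2 -2.38 and 1.13, adjusted p = 0.0514 and 0.143, edgeR). The median mitochondrial and ribosomal share was nonetheless higher in Sost-positive members in each pool, at 3.43%, 5.61% and 3.07% against 1.85%, 3.81% and 2.69%. The 11 pericyte markers were lower in each pool, at 2429, 1941 and 2703 CPM against 3924, 2908 and 3275 CPM, with no overlap. The 8 valve interstitial markers stood at 9131 CPM in the 3 Sost-negative members of pool 3, against 783 CPM in the Sost-positive members of that pool. The part of these values in the difference was not tested by gene. Sost was absent from 1 side by construction, and Rgs5 was at 902, 1676 and 823 CPM in Sost-positive and 1357, 948 and 595 CPM in Sost-negative members.

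Chrm3, Mamdc2, Sparcl1 and Inpp4b were among the genes higher in Sost-negative members. Chrm3 was at 409, 163 and 397 CPM there and at 0, 0 and 78.3 CPM in Sost-positive members, 4 UMIs in all (adjusted p = 0.000215, edgeR). Few nuclei carried it: 8 of 29, 1 of 7 and 1 of 3 Sost-negative members had a Chrm3 UMI, with 47, 5 and 4 UMIs in sum. Mamdc2, a gene of a MAM domain protein, was at 574, 556 and 794 CPM against 36.6, 6.03 and 58.8 CPM, a log2 change of -4.25 (SE 0.43, adjusted p = 2.19e-06, edgeR) from Sost-negative to Sost-positive members. Its UMIs came from 11 of 29, 4 of 7 and 1 of 3 Sost-negative members, and 1 nucleus held 10 of the 17 in pool 2. Sparcl1 was at 365, 458 and 397 CPM against 29.9, 36.2 and 19.6 CPM (log2 -3.58, SE 0.44, adjusted p = 3.25e-05, edgeR). Sparcl1 was also carried by few nuclei, 6 of 29, 3 of 7 and 1 of 3 Sost-negative members, and 1 nucleus held 19 of the 42 UMIs in pool 1 and 1 held 10 of the 14 in pool 2. It was seen in 8 of 59 Sost-positive members of pool 1, so there the UMIs per nucleus differed more than the share of nuclei. In each of these 3 genes the groups did not overlap, as in 17.1% of all genes tested. Without pool 3, Mamdc2 had -4.41 and Sparcl1 -3.55 (adjusted p = 1.68e-19 and 1.69e-09, edgeR). Without pool 1, neither passed (adjusted p = 0.129 for each, edgeR). Inpp4b (log2 -3.19), Slit2, a guidance ligand (-2.77), Gucy1a2, a subunit of the nitric oxide receptor guanylate cyclase (-2.34), and Nr2f2 (-2.39) were lower in Sost-positive members as well. Olfr78, Reln and Trpc6 fell under the filter on low counts.

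Ltbp2, Cxcl12 and several elastic fibre genes were higher in Sost-positive members. Ltbp2 was at 343, 253 and 294 CPM there and 43.5, 32.7 and 99.2 CPM in Sost-negative members (log2 2.83, SE 0.50, adjusted p = 0.00178, edgeR). Cxcl12, a chemokine, was at 299, 537 and 646 CPM against 69.6, 32.7 and 0 CPM (log2 2.82, SE 0.49, adjusted p = 0.00164, edgeR). Fbln5, a fibulin of elastic fibres, was at 1640, 1851 and 1567 CPM against 652, 752 and 397 CPM (log2 1.49, SE 0.30, adjusted p = 0.00562, edgeR). Of 15 elastic fibre genes tested, 4 were higher and 0 lower (Ltbp2, Mfap4, Fbln2 and Fbln5), with a median of 1.02 beside 0.05 over all genes. Of 14 collagens, 2 were higher and 0 lower (Col1a1 and Col1a2). Of all genes tested, 1.78% were higher in Sost-positive members. Sfrp2 (log2 1.99) and Lgr6 (1.38), both of the Wnt list, and Kcnip4 (3.04) were higher too, though in pool 3 Kcnip4 lay the other way. Acta2 did not pass, at 2020, 4159 and 2213 CPM in Sost-positive and 2001, 4379 and 1886 CPM in Sost-negative members (log2 0.12, SE 0.29, adjusted p = 0.934, edgeR).

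Most calls between Sost-positive and Sost-negative members were lost without pool 1, without pool 2 and after matching on depth. Without pool 1, 0 of 849 genes passed (0.0%), 102 at an unadjusted p under 0.05, with 29 of the 39 Sost-negative members gone. Without pool 2, 2 of 1941 passed (0.103%), Mamdc2 and Sparcl1. Ltbp2 had log2 changes of 2.48 without pool 1 and 2.78 without pool 2, Cxcl12 4.57 and 2.49, Mamdc2 -4.76 and -3.83 and Sparcl1 -3.58 and -3.62. Without pool 3, where only 3 Sost-negative nuclei were found, 160 of 3268 passed (4.9%). Matched on depth, 1 of 467 genes passed (0.214%), Mamdc2. DESeq2 called 21 (1.19%), of which 18 were among the 65.

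**Figure D4:**
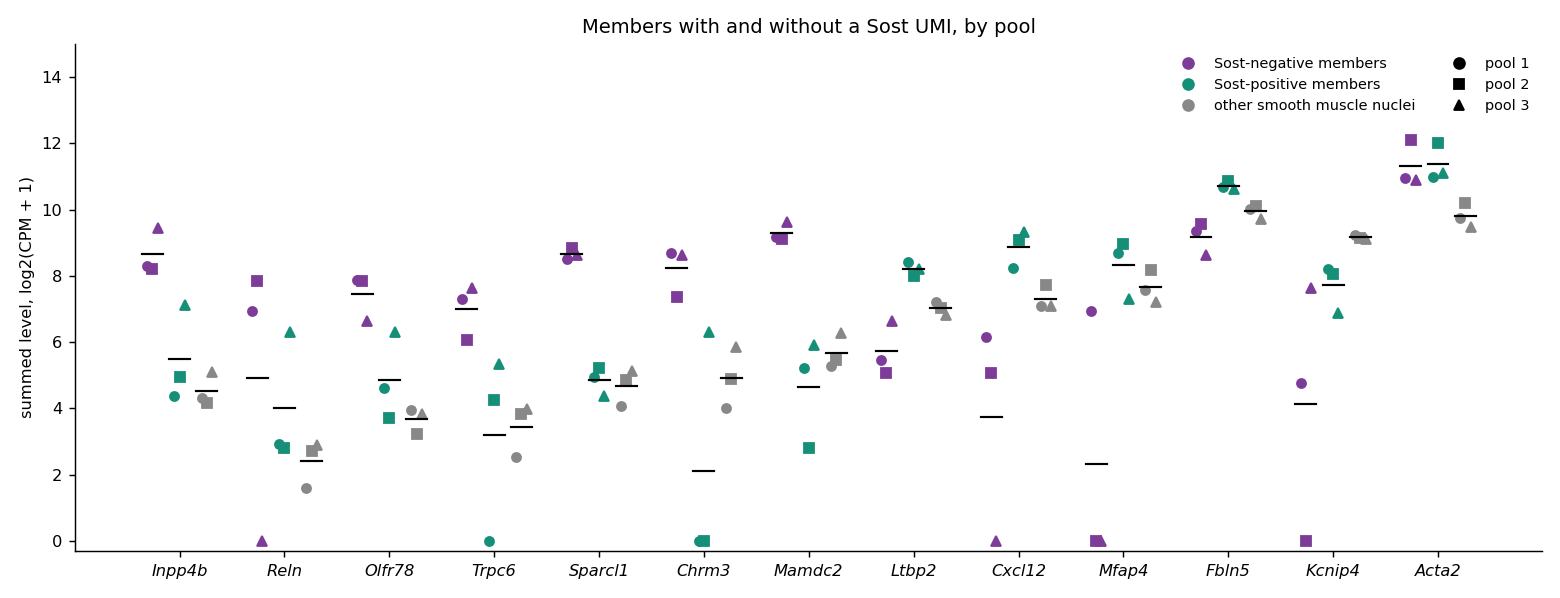
log2(CPM + 1) of named genes in each pool (points) with the mean of these values (line), in Sost-negative members (purple), Sost-positive members (green) and other smooth muscle nuclei (grey); levels of 0 lie at 0. Chrm3, Mamdc2, Sparcl1 and Inpp4b lie higher in Sost-negative members and Ltbp2, Cxcl12 and Fbln5 in Sost-positive members, while Acta2 overlaps.

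Each of these sets of members was also compared with the other smooth muscle nuclei by itself. Against the other smooth muscle nuclei, Inpp4b had 3.80 (adjusted p = 5.03e-10, edgeR) in Sost-negative members and 0.90 (adjusted p = 0.313) in Sost-positive members. Eln had 0.92 (adjusted p = 1.25e-12, edgeR) in Sost-positive members and -0.67 (adjusted p = 0.85) in Sost-negative members, and Cxcl12 had 1.49 (adjusted p = 1.77e-13) and -1.73 (adjusted p = 0.294). Acta2 had 1.57 and 1.12, with only the first past the threshold (adjusted p = 1.04e-25 and 0.389, edgeR). Of all genes, 613 of 9563 (6.41%) passed with Sost-positive members alone and 57 of 8828 (0.646%) with Sost-negative members alone, on 106 and 39 nuclei. In the same order, the median change over genes also tested in the full comparison was -0.04 and -0.26, beside -0.02 and -0.03 there.

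Since Rgs5 is also a pericyte gene, members were set beside 69 nuclei outside the smooth muscle rule that had at least 3 UMIs of Kcnj8 and Abcc9, the subunits of a potassium channel of pericytes. Rgs5 was at 317, 842 and 1148 CPM in these reference nuclei, which overlaps the 785 to 1562 CPM of members. The reference also carried fibroblast markers (4174, 3439 and 718 CPM), valve interstitial markers (2257, 2688 and 2321 CPM) and, in pool 1, mesothelial markers (1045 CPM), so it is not of pericyte markers alone. Kcnj8 was at 4.81, 0 and 0 CPM in members and 298, 467 and 526 CPM in the reference, which was chosen by it, and Vtn, a further pericyte marker, had 0 UMIs in members and 4.66, 23.0 and 23.9 CPM in the reference. Abcc9 was at 104, 81.4 and 49.1 CPM in members, 148, 123 and 120 CPM in the other smooth muscle nuclei and over 1000 CPM in each pool of the reference. Over 11 pericyte markers, the sum was 2843, 2092 and 2797 CPM in members, 2527, 2448 and 2679.8 CPM in the other smooth muscle nuclei and 5167, 8157 and 8708 CPM in the reference. Without Kcnj8 and Abcc9, which chose the reference, the other 9 markers summed to 2734, 2010 and 2748 CPM in members and 3801, 5499 and 5957 CPM in the reference. Of 6 pericyte markers tested, 1 rose in members and 0 fell, beside 5.96% of all genes higher: Cspg4, the NG2 proteoglycan (log2 0.77, adjusted p = 0.000985, edgeR), and 0 of 5 passed after matching. In Sost-negative members the 11 markers summed to 3924, 2908 and 3275 CPM, against 2429, 1941 and 2703 CPM in Sost-positive members, and Kcnj8, Vtn and Colec11 were at 0 in the former. Sost, in turn, was at 32.6, 23.0 and 0 CPM in the reference, and Acta2 at 173, 337 and 167 CPM, far under the 2014 to 4194 CPM of members.

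**Figure D5:**
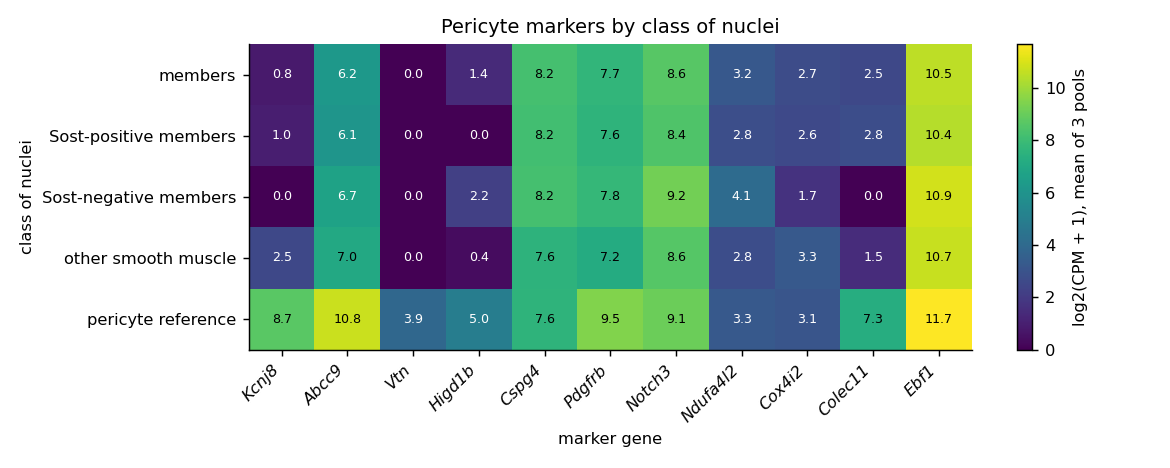
Mean over the 3 pools of log2(CPM + 1) of 11 pericyte markers (columns), by kind of nuclei, with the value in each cell. Kcnj8 and Vtn are at or near 0 in members and in the other smooth muscle nuclei and not in the reference, while Notch3 is at similar levels in the smooth muscle nuclei and the reference. After thinning, Cspg4 was seen in 28.8% of members, 16.5% of the other smooth muscle nuclei and 18.8% of the reference.

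Markers of other cell types were counted beside the 7.21% of all genes called. The 8 endothelial markers summed to 272, 316 and 262 CPM in members and 224, 229 and 209 CPM in the other smooth muscle nuclei, and 0 of 4 tested passed, and 0 of 2 after matching. Of the fibroblast markers, Lum and Col14a1 rose and Abca8a fell, of 6 tested, a share above that of all genes, and 0 of 4 passed after matching. Pi16 and Gfra2 were at 0 in members, and the 10 fibroblast markers summed to 1191, 1517 and 899.7 CPM against 787, 839 and 914 CPM. The 8 valve interstitial markers summed to 479, 382 and 2159 CPM in members and 801, 627 and 1254 CPM in the others. The high value belongs to the 3 Sost-negative members of pool 3, with 9131 CPM beside 513 and 261 CPM in those of pools 1 and 2. Their part in the results of pool 3 was not tested by gene, and without pool 3, 629 of 9874 genes (6.37%) passed in the full comparison.

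Cycling nuclei were seen among members. After thinning to 1000 UMIs, 7 of 88, 8 of 37 and 3 of 20 members had at least 2 UMIs of 12 cell cycle genes, 7.95%, 21.6% and 15%, with a mean of 14.9% ± 6.83. Among nuclei with at least 2000 UMIs the mean was 10.8% in members and 12.3% in the other smooth muscle nuclei, so the order of the means turned. In the other smooth muscle nuclei the shares were 11.6%, 11.9% and 10.3%, within the range of members, and in cardiomyocyte nuclei 3.04%, 3.22% and 1.42%. Of 12 cell cycle genes tested, 0 passed, with a median of -0.41, and after matching 0 of 4, with a median of 0.40. Against Ptprz1 Mylk4 nuclei alone, 3 of 12 were lower, Anln, Top2a and Diaph3, beside 308 of all 8796 genes. Against Clca3a2 Pi15 nuclei 1 of 12 was higher, Hmgb2, a share near the 661 of all 8796 genes. After matching 0 of 10 passed in either.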

How the data were processed

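Nuclear RNA of 3 pools was measured. Per the file headers, the deposited values are raw UMI counts, whole numbers for each gene in each nucleus, made by Cell Ranger, for which the submitters' processing notes list versions 7.0.1 and 7.1.0 and the build GRCm39; the counting settings are not given in the sources used here. Depth was 49918251, 25341316 and 21254247 UMIs in pools 1, 2 and 3, in 10580, 5949 and 4611 deposited nuclei. The members and gene lists were chosen with earlier results of these data known, and the genes of the rule and Acan were never tested.

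Counts were summed per pool and kind of nuclei and tested with edgeR 4.0.16 (R 4.3.3): TMM scaling, filterByExpr, the quasi-likelihood test with pool as a block, since both kinds of nuclei in a pool come from 1 library, and Benjamini-Hochberg adjustment over all genes tested at 0.05. The test was also run on simulated counts with the same spread for all genes and no difference between pools except depth. That setting differs from these pools, so no conclusion on the results above is drawn from it. Named genes were up to 15 each way (8 for the other contrasts) with the largest change among those past the threshold, in the same direction in 3 pools and at 20 CPM or more, without mitochondrial and unnamed genes; genes of the lists could be named too, as could genes called after matching. Some genes chosen by these rules or on these lists are not reported here. Matching on mitochondrial and ribosomal share, the split of the full comparison by Sost, and Sost-positive members limited to those that met the rule without Sost were added after the data were seen. Scrublet (scanpy 1.11.5) marked 0, 3 and 7 nuclei at its automatic threshold, which did not work, so doublets were kept, and an alternative left out the highest scores at 0.8% per 1000 nuclei, among them 2 members. Intervals and limits cover counting error only. Shares were described per pool and not tested. DESeq2 1.42.0 and other filters were alternatives. Nuclei under 1000 UMIs numbered 1529, 1190 and 500, and those over 5% mitochondrial 3023, 2486 and 650, in pools 1, 2 and 3.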

Additional observations from a re-analysis of the deposited data

How the results depend on the processing

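The counts of genes called depended on the setting, while the members' share of smooth muscle nuclei moved by less than its spread between pools under each alternative run, from 6.21% to 4.10% when thinned and 4.18% with at most 2% mitochondrial UMIs at the lowest. Members against other smooth muscle nuclei gave 699 genes, and DESeq2 304, no replicate block 173, matching on depth 228, at most 2% mitochondrial UMIs 164, matching on mitochondrial and ribosomal share and depth 19, only Sost-negative members 57, and leaving out each pool 259 to 629. Against Clca3a2 Pi15 nuclei, 933 became 270 with no replicate block, 316 matched on depth, 113 matched on RNA content and depth, and 367 to 735 without a pool. Against Ptprz1 Mylk4 nuclei, 1011 became 508, 500, 112 and 429 to 868 in the same order. Sost-positive against Sost-negative members gave 65, and DESeq2 21, no replicate block 26, matching on depth 1, at least 2000 UMIs 125, a sum of at least 3 on the defining genes 9, and 0 to 160 without a pool. Matching leaves fewer nuclei and fewer genes to test, and for other settings the cause was not tested.

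With only Sost-negative members, the log2 change turned for Eln (-0.67), Fbln5 (-1.04), Mfap4 (-1.69), Ltbp2 (-1.80), Col1a1 (-0.31), Col8a1 (-0.26), Igf1 (-1.004), Sfrp2 (-0.53) and Cxcl12 (-1.73). In that setting the median over genes tested in both was -0.26, beside -0.03 in the full comparison. Col1a1 and Col8a1 therefore lay near the median of all genes. With only Sost-positive members the log2 change turned for Chrm3 (-1.56), Mamdc2 (-0.59) and Gpm6a (0.0016), matched on depth for Gpm6a (0.25), and matched on RNA content for Igfbp4 (-0.49). The cycling share without thinning was 35.2% in members and 25.3% in the other smooth muscle nuclei, and 10.8% and 12.3% with at least 2000 UMIs, where the order turned. The 20 members of pool 3 and its 3 Sost-negative nuclei limit what depth can show there.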

Other observations

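Within the members, further genes of the lists differed by Sost, beside 1.78% of all genes higher and 1.73% lower in Sost-positive members. Of the cartilage list 0 were higher and 2 lower of 4 tested, of the RGS and receptor list 1 and 1 of 8 (Rgs7 and Chrm3) and of the transcription factor list 0 and 2 of 19 (Nr2f2 and Mef2c). Mef2c, a transcription factor gene of muscle and vessels, was at 1444, 1863 and 1687 CPM in Sost-negative members and 606, 759.5 and 999 CPM in Sost-positive members, with no overlap (log2 -1.06, SE 0.27, adjusted p = 0.0325, edgeR). Sox5 and Sox6 were lower in Sost-positive members as well (log2 -1.15 and -1.34, adjusted p = 0.0185 for each, edgeR). Itga1, the collagen-binding integrin alpha chain, was at 444, 556 and 893 CPM in Sost-negative and 150, 235 and 235 CPM in Sost-positive members (log2 -1.44, SE 0.33, adjusted p = 0.0129, edgeR). Rgs7, of the same family as Rgs5, went the other way, at 339, 261 and 99.2 CPM in Sost-negative and 685, 663 and 823 CPM in Sost-positive members (log2 1.37, SE 0.34, adjusted p = 0.0228, edgeR). In the other smooth muscle nuclei Rgs7 was at 742, 807 and 693 CPM. With Sost-positive members that met the rule without Sost, Sox6 and Rgs7 did not pass (log2 -0.93 and 1.201, adjusted p = 0.172 and 0.0927, edgeR). Of all genes, 0 of 849 passed by edgeR without pool 1 (102 at an unadjusted p under 0.05), 2 of 1941 without pool 2 and 1 of 467 after matching on depth, and none of the genes of this paragraph was among these.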
